A study of Mus musculus with 6 samples.

Results

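The genes described here encode respiratory complex I and the factors that assemble it. They were taken as every gene whose symbol begins with Nduf, read from probe sets that the array annotation assigns to 1 gene symbol, with the brightest probe set standing for its gene. This gave 44 of the 18193 genes measured: 34 subunits, 8 assembly factors with an Ndufaf symbol, and 2 genes named with them that are not subunits of complex I (Ndufa4 and Ndufa4l2). The cells were SVI, a mouse line of conditionally immortalized podocytes, which in the kidney glomerulus cover the outside of the capillaries. The stretched group (3 arrays) had undergone cyclic biaxial stretch at 0.5 Hz and 5% maximum linear strain for 3 days, and the unstretched group (3 arrays) had not. Both groups had been differentiated for 1 to 2 weeks at 38 °C in RPMI with 10% serum. A single line was used. What the 3 batches of the design were is not given in the sources used here. The p-values therefore describe variation among these arrays, part of which may be technical.

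Complex I takes electrons from NADH, passes them through a chain of iron-sulphur clusters to ubiquinone, and pumps protons across the inner mitochondrial membrane. It is L-shaped. Its matrix arm holds a module that oxidises NADH and a module that reduces quinone, and its membrane arm, with a proximal and a distal part, pumps protons. The core subunits carry the chemistry and are shared with bacteria, many supernumerary ones surround them, and some membrane subunits are encoded by mitochondrial DNA. The mitochondrially encoded subunits are not analysed here. Assembly factors help to build the enzyme and are not part of the finished complex. In human kidney, inherited defects of ubiquinone synthesis are known to injure podocytes.

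Values are log2 expression per probe set, and the number of arrays limits the precision. Array medians over the deposited table lay between 4.92 and 4.98. Over genes, arrays correlated at 0.997 within the stretched group, 0.995 to 0.996 within the unstretched group and 0.988 to 0.990 between groups. The difference between the 3' and 5' beta-actin control probe sets, a sign of RNA quality, was 1.30 ± 0.05 in stretched and 1.57 ± 0.03 in unstretched cells (SD, n = 3 each; two-sided exact permutation p = 0.1, which is the minimum for 3 arrays against 3). The same difference for Gapdh was 0.158 ± 0.096 in stretched and 0.245 ± 0.070 in unstretched cells (SD, n = 3 each; exact permutation p = 0.4), and its groups overlapped. Of 14 listed podocyte markers 11 were measured, and 1 fell (Synpo). Of the 11, 5 lay below the median gene, among them Nphs1 (percentile 38.6), Tcf21 (16.9) and Foxc2 (3.15). Of 5 macrophage markers 2 fell, Cd68 and Csf1r, and 4 of the 5 lay below the median gene. The summed log2 level of all 5 was 25.0 to 25.5 in stretched and 26.8 to 27.4 in unstretched cells. The 6 mesangial and smooth muscle markers summed to 42.8 to 43.2 in stretched and 42.0 to 42.5 in unstretched cells, and 1 of them rose (Pdgfrb). The sums of podocyte, endothelial, tubule and fibroblast markers overlapped between the groups. Of these other lists, 1 of 6 tubule genes rose (Cubn), and 0 of 6 endothelial and 0 of 4 fibroblast genes were called. Below the median gene lay 5 tubule, 5 endothelial, 4 fibroblast and 3 mesangial and smooth muscle markers. Over all genes 6.76% fell and 7.98% rose. Whether these short marker lists depart from that background was not tested. Detection calls were not used here. The part of these shifts in the results below was not tested, and in bulk RNA fewer cells of a type and less RNA per cell cannot be told apart.

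Transcripts of complex I subunits were modestly lower in stretched cells. Of 34 subunits, 9 fell, 1 rose and 24 did not pass (limma, Benjamini-Hochberg adjusted p under 0.05 over all genes). The largest fall was in Ndufv3 (1.49-fold lower) and the rise was in Ndufc1. Thus 26.5% of subunits fell, against 6.76% of all genes and 10.5% of the brighter genes, those at or above the median gene in mean level. The 1 rise made up 2.94% of subunits, against 7.98% of all genes and 14.3% of the brighter ones. The median log2 change was -0.18 over subunits and -0.02 over all genes. A negative change was seen in 29 subunits (85.3%) and in 53.6% of all genes. All 3 stretched values lay below all 3 unstretched values in 22 subunits (64.7%), against 16.6% of all genes, and above them in 1 subunit (2.94%), against 16.0%.

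**Figure D1:**
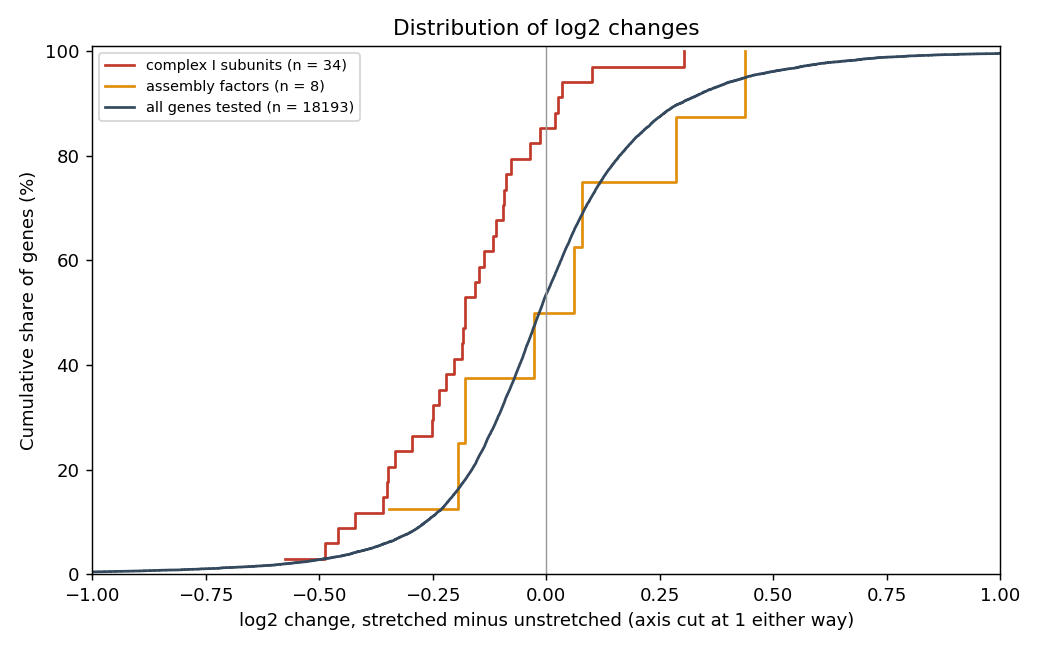
Cumulative share of genes (vertical axis, percent) by log2 change, stretched minus unstretched (horizontal axis), for 34 complex I subunits, 8 assembly factors and all 18193 genes. The subunit curve lies mostly left of the curve of all genes, with medians of -0.18 and -0.02, while the assembly factors have a median of 0.02.

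The shift was small per gene and showed on every array. The median level over the 34 subunits was 9.92, 9.88 and 9.86 in stretched cells and 10.02, 10.08 and 10.08 in unstretched cells. Over all genes tested the array medians were 5.75, 5.72 and 5.72 in stretched cells and 5.74, 5.74 and 5.75 in unstretched cells. The lowest of the 6 values fell on a stretched array in 28 subunits and the highest on an unstretched array in 29. Subunits were bright and tight: 33 of 34 lay above the median gene, and the median SD within a group was 0.05 in stretched and 0.06 in unstretched cells, against 0.10 and 0.12 over all genes. Across the 34 subunits, which share the same arrays, change and mean level had a Pearson r of -0.16 and a Spearman rho of -0.07.

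The promoters of 5 called subunits are shown because each holds a motif searched for, 4 in genes that fell and the last, Ndufc1, in the gene that rose. Each is a 300-base window from RefSeq, mouse build GRCm38.p6, running from 250 bases before to 50 after the gene's start, 5′ to 3′ on the gene's strand. Capitals mark matches to the motifs. The windows lie at chr10:80249199-80249498 (plus strand), chr2:90904672-90904971 (minus strand), chr1:92473709-92474008 (minus strand), chr6:39592315-39592614 (plus strand) and chr3:51408906-51409205 (minus strand).
Ndufs7: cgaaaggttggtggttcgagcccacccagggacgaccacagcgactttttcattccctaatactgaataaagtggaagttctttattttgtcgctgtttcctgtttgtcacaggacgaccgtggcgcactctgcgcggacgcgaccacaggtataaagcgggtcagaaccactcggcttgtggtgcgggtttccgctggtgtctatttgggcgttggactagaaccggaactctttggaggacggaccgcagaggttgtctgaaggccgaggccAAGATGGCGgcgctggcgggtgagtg
Ndufs3: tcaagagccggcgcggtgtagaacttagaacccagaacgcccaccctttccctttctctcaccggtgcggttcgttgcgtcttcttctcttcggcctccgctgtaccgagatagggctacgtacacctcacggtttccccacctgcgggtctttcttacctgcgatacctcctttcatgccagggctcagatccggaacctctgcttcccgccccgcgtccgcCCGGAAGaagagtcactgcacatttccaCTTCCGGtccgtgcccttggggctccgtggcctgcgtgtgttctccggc
Ndufa10: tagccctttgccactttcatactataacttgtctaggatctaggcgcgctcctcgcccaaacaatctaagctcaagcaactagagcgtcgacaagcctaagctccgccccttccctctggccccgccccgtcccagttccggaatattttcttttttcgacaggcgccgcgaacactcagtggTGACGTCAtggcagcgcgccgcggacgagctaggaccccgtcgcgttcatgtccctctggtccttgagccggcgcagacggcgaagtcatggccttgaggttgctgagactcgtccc
Ndufb2: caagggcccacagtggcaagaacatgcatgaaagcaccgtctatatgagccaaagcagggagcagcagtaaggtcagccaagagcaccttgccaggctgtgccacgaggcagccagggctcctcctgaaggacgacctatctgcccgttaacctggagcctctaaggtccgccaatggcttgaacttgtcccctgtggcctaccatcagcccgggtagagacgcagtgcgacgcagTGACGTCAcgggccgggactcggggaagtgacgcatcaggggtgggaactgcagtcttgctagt
Ndufc1: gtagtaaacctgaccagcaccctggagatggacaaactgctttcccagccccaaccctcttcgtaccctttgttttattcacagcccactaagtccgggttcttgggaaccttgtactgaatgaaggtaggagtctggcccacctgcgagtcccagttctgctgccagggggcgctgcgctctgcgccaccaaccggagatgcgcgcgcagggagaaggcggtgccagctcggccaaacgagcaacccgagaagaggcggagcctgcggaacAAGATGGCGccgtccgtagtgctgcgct

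The motifs belong to factors known for mitochondrial or cyclic AMP-responsive genes and were searched on both strands. Windows were found for 39 of the 44 genes, 31 of them subunits. Among subunits that fell, the windows of Ndufv3, Ndufb8 and Ndufb5 held none of the motifs, and Ndufs1 and Ndufb9 had no window. The letters were GCGCATGCG for NRF1, CCGGAAG for the ETS family that includes GABP, CAAGGTCA for the oestrogen-related receptors, AAGATGGCG for YY1 and TGACGTCA for CREB. Matches to different motifs did not overlap in the windows shown. The YY1 letters were found in 4 of 31 subunits (12.9%), against 1.64% of all genes with a window. In all 4 (Ndufa9, Ndufc1, Ndufs4 and Ndufs7) they begin after the gene's start, at bases 23 to 36 counted from it. Whether they overlap the start of the coding sequence was not tested. The YY1 letters stand at bases 275 to 283 of the Ndufs7 window and 273 to 281 of the Ndufc1 window. Ndufs7 fell and Ndufc1 is the gene that rose. The CREB letters were found in 2 subunits (6.45%, against 2.03% of all genes), at bases 184 to 191 in Ndufa10 and 237 to 244 in Ndufb2. The ETS letters were found in 4 subunits (12.9%, against 9.93%), and Ndufs3 held them at bases 224 to 230 and 252 to 258. The NRF1 letters and the oestrogen-related receptor letters were each found in 1 subunit (3.23%), against 1.95% and 1.76% of all genes. Of 7 subunits that fell and had a window, 14.3% held the YY1 letters, 14.3% the ETS letters and 28.6% the CREB letters. Of the 24 other subunits these were 12.5%, 12.5% and 0%. The NRF1 and oestrogen-related receptor letters were each in 0% and 4.17%. Whether these shares differ was not tested. The background share of each motif was taken over all 27025 genes with a window. It was not limited to genes measured here or to the brighter ones. A match describes letters only and was not tested as a binding site.

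The counts by module that follow are small. They stand against the 26.5% of all subunits, 6.76% of all genes and 10.5% of the brighter genes that fell. Whether modules differ from each other or from these shares was not tested. In the NADH-oxidising module, 2 of 9 measured subunits fell and 0 rose, with a median log2 change of -0.15. Ndufv3, a supernumerary subunit of this module, had levels of 10.16, 10.16 and 10.16 in stretched cells and 10.59, 10.79 and 10.83 in unstretched cells. The stretched values were nearly equal and the groups did not overlap. Ndufv3 fell by 0.58 on the log2 scale (SE 0.09, 95% interval -0.77 to -0.38, limma adjusted p = 0.00194). Ndufs1, a core subunit that carries several iron-sulphur clusters, had levels of 10.00, 9.89 and 9.84 in stretched cells and 10.26, 10.27 and 10.25 in unstretched cells. It fell by 0.35 (SE 0.08, limma adjusted p = 0.0172), a level 1.27-fold lower. This call was lost without stretched replicate 2 (adjusted p = 0.0630) or 3 (0.0715). The core subunit Ndufv1, which binds NADH and FMN, had a log2 change of 0.03 (95% interval -0.14 to 0.21), and its partner Ndufv2 one of -0.20 (-0.40 to -0.01, adjusted p = 0.160). The other 5 of the module had changes from -0.18 (Ndufa6) to 0.02 (Ndufa2).

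In the quinone module, 2 of 5 fell and 0 rose, with a median of -0.25. Ndufs7, which holds the last iron-sulphur cluster before quinone and whose promoter is printed above, had levels of 9.62, 9.45 and 9.46 in stretched cells and 9.97, 10.05 and 9.97 in unstretched cells. It fell by 0.49 on the log2 scale (SE 0.09, limma adjusted p = 0.00388). Its second probe set had a log2 change of -0.52 (SE 0.08), called when every probe set was tested (limma adjusted p = 0.00320). Ndufs3, another core subunit of this module, had levels of 9.41, 9.26 and 9.16 in stretched cells and 9.67, 9.73 and 9.69 in unstretched cells. It fell by 0.42 (SE 0.09, limma adjusted p = 0.0106), and every stretched value lay below every unstretched one. The iron-sulphur subunit Ndufs8 had a log2 change of -0.25 (95% interval -0.44 to -0.06, limma adjusted p = 0.0757), and its 6 probe sets ran from -0.32 to 0.05. Ndufa9 and Ndufa5 had changes of -0.09 and 0.03. Of 6 core subunits measured across both modules 3 fell (Ndufs1, Ndufs3 and Ndufs7). Of 28 supernumerary ones in the whole complex 6 fell and 1 rose, and whether these shares differ was not tested.

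**Figure D2:**
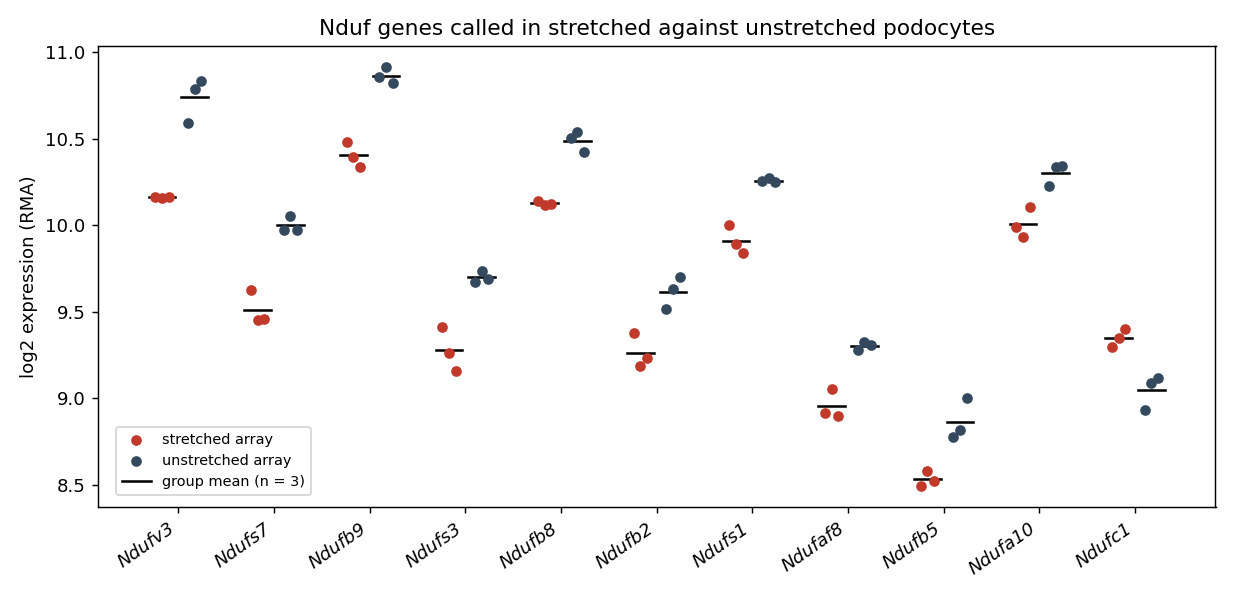
Log2 expression (vertical axis) of the 11 called Nduf genes on each array, with stretched arrays left of unstretched ones and bars at the group means (n = 3). In 10 genes the stretched points lie below the unstretched ones, and in Ndufc1 they lie above.

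In the proximal membrane arm, 1 of 8 fell and 1 rose, with a median of -0.11. Ndufa10, a supernumerary subunit on the matrix side of this arm, had levels of 9.99, 9.93 and 10.10 in stretched cells and 10.23, 10.34 and 10.34 in unstretched cells. It fell by 0.30 (SE 0.09, limma adjusted p = 0.0441). Leaving out any one of the 6 arrays removed this call (adjusted p = 0.0522 to 0.156), as did centring the arrays on their medians (0.0689) and testing every probe set (0.0562).

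Ndufc1, a small membrane subunit, had levels of 9.30, 9.35 and 9.40 in stretched cells and 8.93, 9.09 and 9.12 in unstretched cells. It rose by 0.30 (SE 0.09, limma adjusted p = 0.0394), with no overlap between the groups. The second Ndufc1 probe set, at a mean level of 8.94 against 9.20, had a change of -0.12 (limma adjusted p = 0.429). The call of the first was lost under 9 of 16 alternatives, among them quantile normalization again (0.128), cyclic loess (0.103) and averaged probe sets (0.479). The other 6 of this arm, from Ndufa8 (-0.18, 95% interval -0.36 to -0.01) to Ndufa1 (-0.08), did not pass.

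In the distal membrane arm, 4 of 11 fell and 0 rose, with a median of -0.24. All 11 are supernumerary subunits with an Ndufb symbol. Ndufb9 had levels of 10.48, 10.39 and 10.34 in stretched cells and 10.86, 10.91 and 10.82 in unstretched cells, and fell by 0.46 (SE 0.08, limma adjusted p = 0.00442). Ndufb8 had levels of 10.14, 10.12 and 10.12 in stretched cells and 10.50, 10.54 and 10.42 in unstretched cells, and fell by 0.36 (SE 0.08, limma adjusted p = 0.0127). Both genes held their call whichever array was left out, and in both the stretched arrays were all lower.

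Ndufb2 had levels of 9.37, 9.18 and 9.23 in stretched cells and 9.51, 9.63 and 9.70 in unstretched cells. It fell by 0.35 (SE 0.09, limma adjusted p = 0.0262). Ndufb5 had levels of 8.49, 8.58 and 8.52 in stretched cells and 8.78, 8.81 and 9.00 in unstretched cells. It fell by 0.33 (SE 0.09, limma adjusted p = 0.0307). The groups did not overlap in either gene, but with an array left out the call held in only 2 of 6 cases for Ndufb2 and 1 of 6 for Ndufb5 (adjusted p up to 0.102 and 0.110). Among the rest, Ndufb10 (-0.25), Ndufb11 (-0.24) and Ndufb7 (-0.22) had intervals below 0 but did not pass (adjusted p = 0.108, 0.0969 and 0.124). Ndufb3 had a change of 0.10 (95% interval -0.09 to 0.29). Ndufb4 was read by a dim probe set, with levels from 3.49 to 3.60 in a table that runs from 2.67 to 13.93.

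The acyl carrier protein Ndufab1, which sits in both arms and also serves mitochondrial fatty acid synthesis, had levels of 10.36, 10.37 and 10.41 in stretched cells and 10.44, 10.49 and 10.48 in unstretched cells. Its groups did not overlap, and its change of -0.09 did not pass (limma adjusted p = 0.500).

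**Figure D3:**
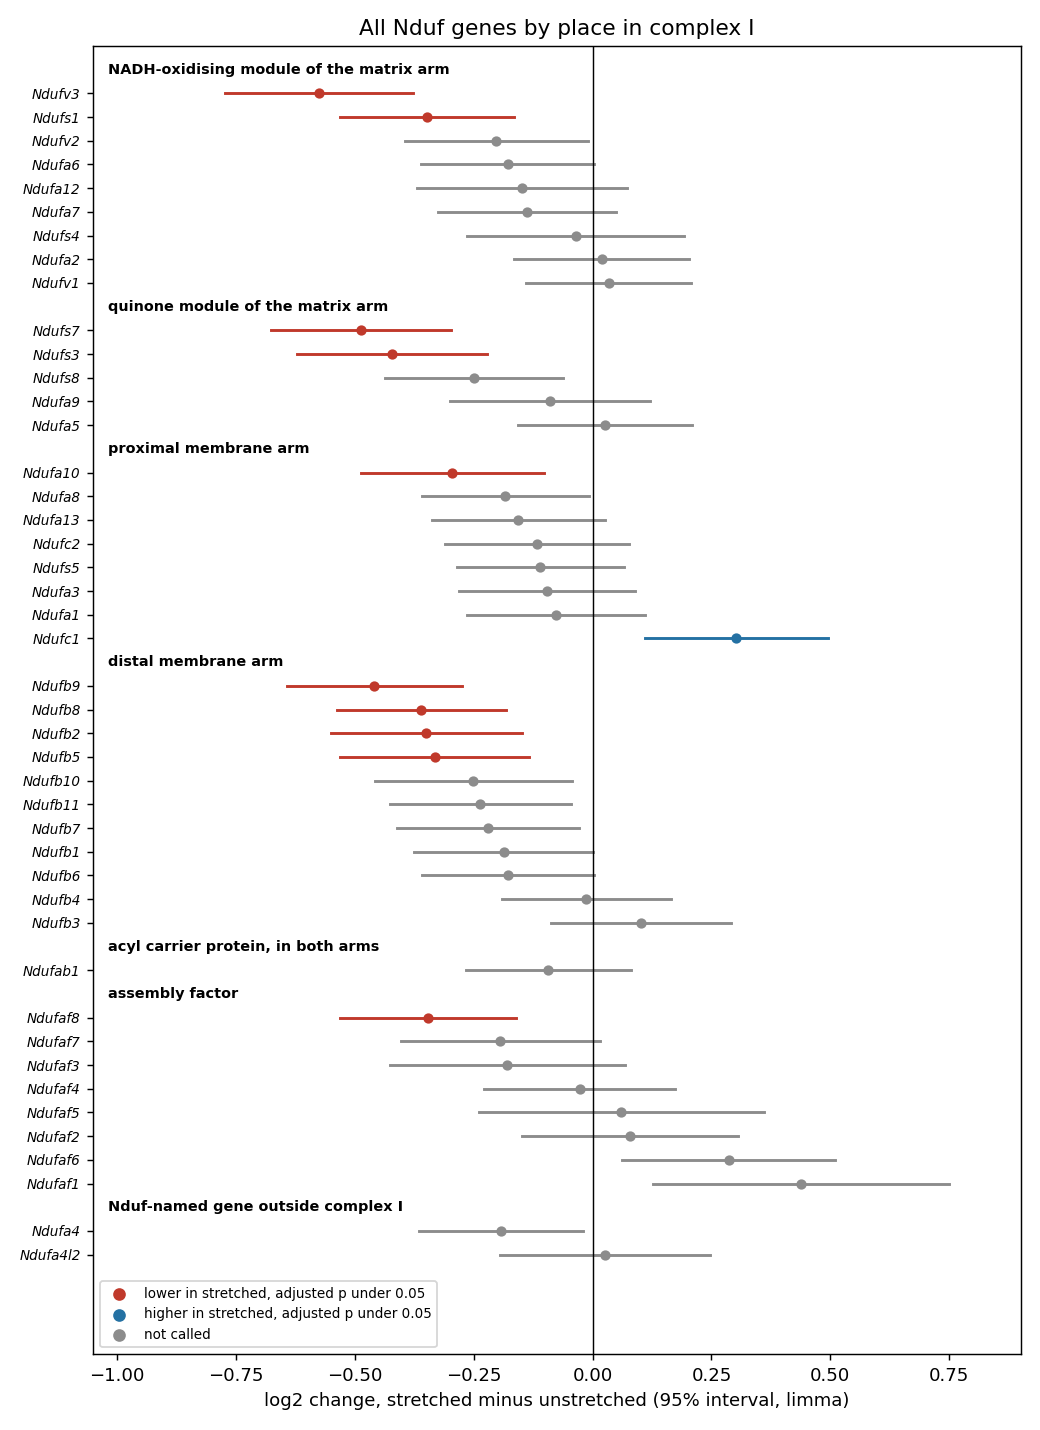
Log2 change, stretched minus unstretched, with its 95% interval from limma (horizontal axis) for all 44 Nduf genes, grouped by place in the complex. Coloured points mark called genes; 9 of the 10 genes that fell are subunits, spread over both arms.

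Of the 44 genes, 22 had further probe sets, which numbered 44. Of these 44 probe sets 3 fell (one each of Ndufs7, Ndufs8 and Ndufb11), 0 rose, and 30 had a negative change, with a median of -0.06. Of all 16752 such further probe sets 631 fell (3.77%), 1519 rose and 8355 had a negative change, with a median of 0.0007. The dimmer probe sets did not all follow the brightest. That of Ndufb8, at a mean level of 7.22 against 10.31, had a change of 0.10, and the third of Ndufb9, at 4.88, one of 0.17. The second of Ndufb9, at 10.26, had one of -0.25 (limma adjusted p = 0.0858). With all probe sets of a gene averaged, the calls of Ndufb9 (adjusted p = 0.151), Ndufb8 (0.375), Ndufb2 (0.245) and Ndufb5 (0.114) were lost, and 6 subunits fell and 0 rose.

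Assembly factors as a class showed no shift in direction beyond that of all genes. Of 8 Ndufaf genes 1 fell (12.5%, against 6.76% of all genes) and 0 rose. Changes were negative in 4 and positive in 4, and the median log2 change was 0.02. Over all genes 53.6% had a negative change and the median was -0.02, so this division is near the background. Some signs rest on changes near 0. That of Ndufaf4 was -0.03, while its second probe set had a change of 0.28 that did not pass. Their median SD within a group was 0.12 in stretched and 0.16 in unstretched cells. Ndufaf8, known in human cells as a partner of Ndufaf5, had levels of 8.92, 9.06 and 8.90 in stretched cells and 9.28, 9.32 and 9.31 in unstretched cells. It fell by 0.35 (SE 0.08, limma adjusted p = 0.0186), with no overlap between the groups. The call was lost without stretched replicate 1 (adjusted p = 0.0780), stretched replicate 3 (0.0745) or unstretched replicate 2 (0.0537). Ndufaf5, which modifies the Ndufs7 protein, had a change of 0.06 (95% interval -0.24 to 0.36).

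Ndufaf1, which takes part in building the membrane arm, lay on the other side. It had levels of 7.17, 6.999 and 6.84 in stretched cells and 6.26, 6.84 and 6.60 in unstretched cells. Its log2 change was 0.44 (95% interval 0.13 to 0.75, limma adjusted p = 0.0614), and stretched replicate 3 and unstretched replicate 2 were almost equal. It passed in 5 of the alternatives, for example without unstretched replicate 2 (0.0251) or with arrays centred on their medians (0.0464). Ndufaf6 had a change of 0.29 (limma adjusted p = 0.0889). The methyltransferase Ndufaf7 had one of -0.19. Ndufaf3 and Ndufaf4, which act early in assembly of the matrix arm, had changes of -0.18 and -0.03, and Ndufaf2, a relative of Ndufa12, one of 0.08. Of 13 further assembly factors without an Nduf symbol 2 fell (15.4%) and 0 rose (median -0.08). Among all genes 6.76% fell and 7.98% rose, and among the brighter ones 10.5% and 14.3%. Whether this short list departs from that background was not tested. Nubpl, which delivers iron-sulphur clusters to the complex, fell by 0.44 (SE 0.09, limma adjusted p = 0.00972) and Foxred1 fell by 0.42 (SE 0.10, adjusted p = 0.0165).

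Ndufa4, first counted with complex I and now assigned to cytochrome oxidase, had levels of 11.21, 11.18 and 11.18 in stretched cells and 11.38, 11.39 and 11.39 in unstretched cells. The groups did not overlap, but its change of -0.19 did not pass (95% interval -0.36 to -0.02, limma adjusted p = 0.133). It passed after quantile normalization again (0.0438), with cyclic loess (0.0397) and with another prior (0.0225). Its paralog Ndufa4l2, known as a hypoxia-induced gene, had levels of 4.82, 5.05 and 5.14 in stretched cells and 4.95, 4.92 and 5.05 in unstretched cells. These groups overlapped, and the change was 0.03 (95% interval -0.19 to 0.25).

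In the other respiratory complexes most genes did not pass. Of 8 complex II genes 1 fell (12.5%) and 0 rose, of 15 complex III genes 4 fell (26.7%) and 0 rose, and of 28 complex IV genes 5 fell (17.9%) and 0 rose. Of 20 complex V genes 4 fell (20.0%) and 2 rose (10.0%). Over all genes 6.76% fell and 7.98% rose, and 10.5% and 14.3% of the brighter ones, so the share in complex II is near that background. The median changes were -0.14 in complex II, -0.13 in III, -0.19 in IV and -0.14 in V. The complex III subunit Uqcr11 fell by 0.43 (SE 0.08), and Uqcrb, another, fell by 0.41 (SE 0.08). In complex IV, Cox6a2, the heart and muscle form of a subunit, had levels of 6.31, 6.21 and 6.25 in stretched cells and 7.33, 7.31 and 6.88 in unstretched cells, and fell by 0.92 (SE 0.12, limma adjusted p = 6.85e-04). Cox8a fell by 0.56 (SE 0.09). The genes of complex V that rose were Atpif1, the inhibitor of ATP synthase, with a log2 change of 0.39 (SE 0.10), and Atp5pb, with 0.36 (SE 0.10). Whether complex I differs from these complexes was not tested.

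Most genes that feed complex I or serve its cofactors did not pass either. Of 14 iron-sulphur cluster genes 3 fell (21.4%, against 6.76% of all genes and 10.5% of the brighter ones), 0 rose and 4 had changes above 0 (median -0.10): Bola3 fell by 0.65 (SE 0.09), the ferredoxin gene Fdx1 fell by 0.55 (SE 0.08) and Lyrm4 fell by 0.47 (SE 0.12). Of 26 genes of other NADH and quinone routes 8 fell (30.8%), 0 rose and 9 had changes above 0 (median -0.14). Of the ubiquinone synthesis genes in this list, a grouping made after the values were seen, Coq2, Coq3, Coq5, Coq7, Coq8a and Coq9 fell, and Coq9 fell by 0.49 (SE 0.09, limma adjusted p = 0.00543). Coq4, Coq6 and Pdss2 did not pass, with changes of -0.17, -0.07 and 0.16 (limma adjusted p = 0.214, 0.737 and 0.480). The other two that fell were Got1 and Mdh1, cytosolic enzymes of the malate-aspartate shuttle. Nnt, the mitochondrial transhydrogenase, had a change of 0.00 (95% interval -0.18 to 0.18). Of 76 mitochondrial ribosomal protein genes 9 fell (11.8%) and 2 rose (2.63%), with a median of -0.04. The share that fell is near the 10.5% of the brighter genes. Rises made up 7.98% of all genes and 14.3% of the brighter ones. Mrps6 rose by 0.72 (SE 0.11), while Mrps11 fell by 0.55 (SE 0.10).

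**Figure D4:**
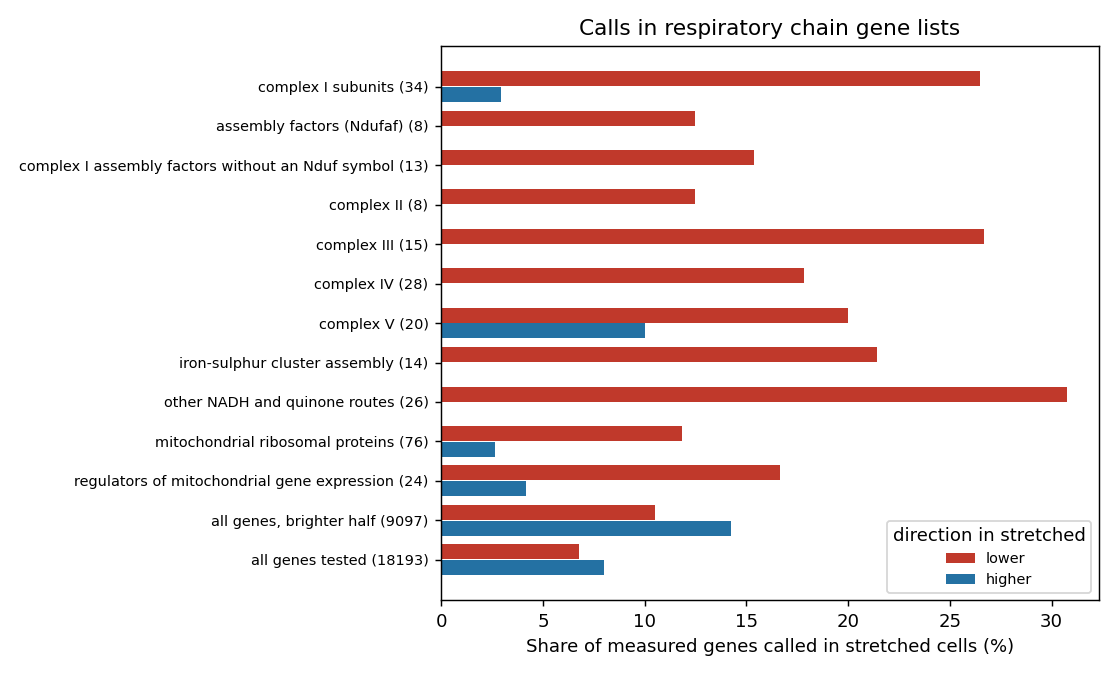
Share of measured genes called lower and higher in stretched cells (horizontal axis, percent, limma adjusted p under 0.05) for each gene list. Subunits of complex I stand at 26.5% lower and 2.94% higher, and all genes at 6.76% and 7.98%.

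Among 24 regulators of mitochondrial gene expression 4 fell (16.7%) and 1 rose (4.17%), with a median of -0.01. Over all genes 6.76% fell and 7.98% rose, and 10.5% and 14.3% of the brighter ones. Ppargc1a encodes PGC-1 alpha, a coactivator of mitochondrial genes. It had levels of 6.37, 5.97 and 5.55 in stretched cells and 7.59, 7.60 and 8.11 in unstretched cells (log2 change -1.80, SE 0.20). Its relative Ppargc1b had levels of 6.38, 6.30 and 6.80 in stretched cells and 7.53, 7.81 and 8.44 in unstretched cells, and fell by 1.43 (SE 0.21, limma adjusted p = 0.00119). Esrrg, an oestrogen-related receptor that these coactivators bind, had levels of 4.68, 4.49 and 4.49 in stretched cells and 5.16, 5.75 and 6.07 in unstretched cells, and fell by 1.11 (SE 0.18, limma adjusted p = 0.00277). The groups did not overlap in any of these 3 genes.

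Esrra, Tfam, Gabpa and Nrf1, transcription factors of the same programme, did not pass. Esrra had a log2 change of 0.01, the mitochondrial DNA factor Tfam one of 0.08, Gabpa 0.14 and Nrf1 -0.24 (limma adjusted p = 0.957, 0.595, 0.431 and 0.180). Sirt3, a mitochondrial deacetylase, fell by 0.37 (SE 0.10) and Mterf3, a mouse repressor of mitochondrial transcription, rose by 0.39 (SE 0.09). Whether the changes of regulators and subunits are linked was not tested.

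Scaling between arrays moved the count of subunit calls. With the arrays quantile normalized again 14 subunits fell and 0 rose, with cyclic loess 13 and 0, and with arrays centred on their medians 8 and 1. Under the same settings 8.49%, 8.14% and 5.65% of all genes fell, so the background moved the same way as the subunit count. The median change of all genes was -0.01, -0.01 and 0.01 under these, and that of subunits -0.25, -0.24 and -0.15. The calls of Ndufv3, Ndufs7 and Ndufs3 held under all 16 alternatives. For Ndufv3 and Ndufs3, read by 1 probe set each, averaging probe sets could not change the values.

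**Figure D5:**
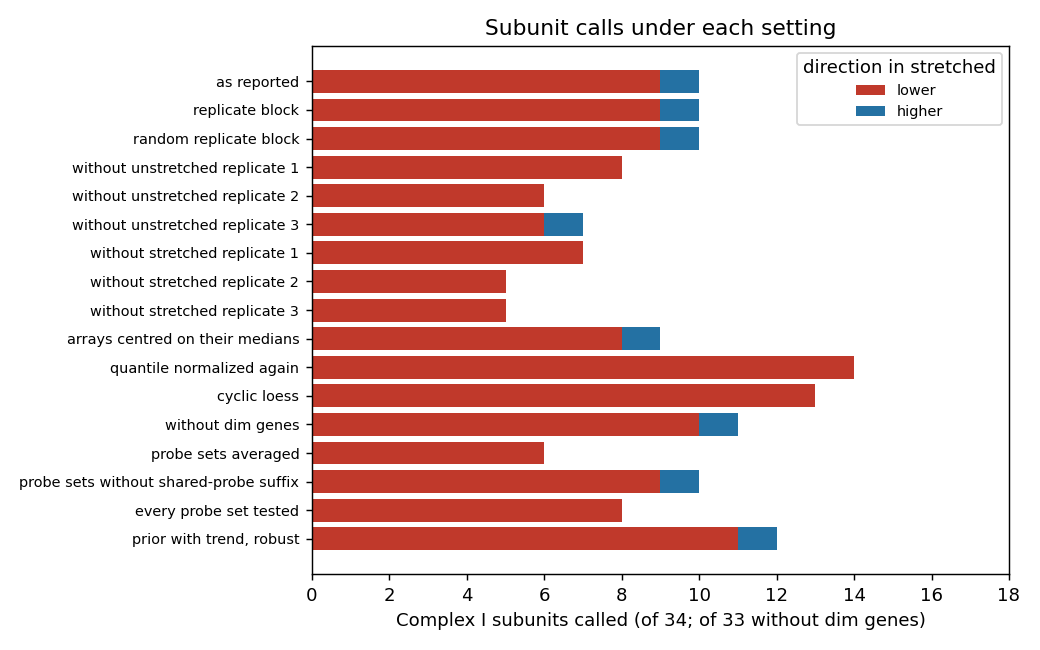
Number of complex I subunits called lower and higher in stretched cells (horizontal axis) as reported and under 16 other settings. The count lower runs from 5, without stretched replicate 2 or 3, to 14, with quantile normalization again.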

How the data were processed

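Gene expression was measured on Affymetrix arrays in 3 stretched and 3 unstretched samples, grouped by their titles. What the authors deposited is a log2 value for each probe set on each array, made with RMA per the submitters' processing notes; its version is not given in the sources used here. RMA values carry no zeros, and changes of dim probe sets are compressed. Of 45101 probe sets, 64 controls, 932 with several gene symbols (10 of them with an Nduf symbol) and 9160 not listed in the annotation were left out of the gene test. The probe set with the highest mean over 6 arrays stood for each of 18193 genes. The difference of stretched minus unstretched was estimated by limma 3.58.1 (lmFit, eBayes; R 4.3.3), without covariates or a filter, at a Benjamini-Hochberg adjusted p under 0.05 over all genes. The steps were tested on simulated data. A first simulation, with noise from raw sample SDs, missed its recovery mark. The test passed at the same mark once noise was drawn from the variance prior fitted to these arrays. Such noise follows limma's own model, and the mark was for changes larger than that of any Nduf gene. Recovery of smaller changes is not reported here. An SE or interval is that of the log2 change, with n = 3 per group, unless given as an SD.

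Single values were compared with a two-sided exact permutation test (scipy 1.17.1). Every Nduf gene may be named, and called members and the strongest 2 of each role got values per array; of other lists, called members up to 4 by moderated statistic, and 5 set regulators. Atp5pb, Coq2, Coq3, Coq7, Mdh1, Sirt3, Atpif1, Nnt, Coq4, Coq6, Pdss2, Nphs1, Tcf21 and Foxc2 fall outside this rule and were chosen after their values were seen. The members and lists were chosen with earlier results of these data known. Alternatives were a replicate block (fixed or random), single arrays omitted, other scalings, no dim genes, other uses of probe sets and another prior.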

Additional observations from a re-analysis of the deposited data

How the results depend on the processing

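Calls over all genes numbered 2681 (1452 higher, 1229 lower). With an array left out they ran from 1661 (without stretched replicate 1) to 2639, and were 1750 without stretched replicate 3. Rises made up 54.2% of calls as deposited, 42.7% after quantile normalization again, 44.6% with cyclic loess and 61.8% with arrays centred on their medians. Subunits called numbered 10 (9 lower, 1 higher). With an array left out they numbered 5 to 8 in all, 5 to 8 lower and 0 to 1 higher: 6 in all without unstretched replicate 2, and 5 without stretched replicate 2 or 3. They numbered 6 (0 higher) with probe sets averaged, and 14 were lower after quantile normalization again. The 1 higher call, Ndufc1, was lost (0 higher) with quantile normalization again, cyclic loess and every probe set tested too. Assembly factors called numbered 1, and 0 to 1 with an array left out (0 without stretched replicate 1 or 3). They numbered 2, with Ndufaf1 added, under a random replicate block, arrays centred on their medians, no dim genes or another prior. The cause of these moves was not tested.

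Same-numbered arrays of the groups deviated together unevenly (r = 0.02, 0.15 and 0.28 for numbers 1, 2 and 3), and stretched replicate 1 did not correlate best with its own number, so the numbers were not taken to pair the samples. With the replicate number as a fixed block 3102 genes were called, and as a random block 3283 (consensus correlation 0.15). Under both, the counts of subunits (9 lower, 1 higher) were as reported. The count of assembly factors (1) was as reported under the fixed block. Signal over background is unknown here, which limits dim members such as Ndufb4 and Ndufa4l2.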
